A study of Homo sapiens with 9 samples.

Results

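Levels of 10 genes of lipid handling were followed in HK-2 cells under fine particulate matter from air (PM2.5), with or without prior lactoferrin. The genes were ANGPTL4, PDK4, PLIN2, G0S2, HILPDA, CPT1A, ACADVL, PPARA, PPARD and PNPLA2, and they were found by symbol among the 58884 gene identifiers of the deposited tables. All 10 had an identifier and all 10 passed the filter on low values. The set was chosen by known role and by the fold changes of these same libraries, so the members' levels and fold changes are given as a description and support nothing further.

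HK-2 is a human cell line, immortalised, that comes from the epithelium of the kidney's proximal tubule. Lactoferrin binds iron and is found in milk and in neutrophils. RNA was sequenced from 3 libraries in each of 3 groups. Cells of the lactoferrin plus PM2.5 group received lactoferrin for 6 h and then PM2.5 for 18 h, cells of the PM2.5 group received PM2.5 for 24 h, and control cells are labelled untreated, although the treatment notes mention a vehicle. The groups with and without lactoferrin thus also differ in their time in PM2.5. The series text gives 40 mg/ml of lactoferrin and 1 mg/ml of PM2.5, units that could not be checked. All groups shared a serum-free keratinocyte medium with bovine pituitary extract and epidermal growth factor. The labels do not say whether replicates were separate cultures, so p-values measure a spread between libraries that may be technical. In bulk RNA, fewer cells of a type and less RNA per cell cannot be told apart.

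Peroxisome proliferator-activated receptors (PPARs) are nuclear receptors that bind fatty acids and, paired with a retinoid X receptor, switch on genes of fat uptake, storage and oxidation. The proximal tubule draws most of its energy from fatty acid oxidation, and surplus fatty acids are stored as triglyceride in lipid droplets. Droplet triglyceride is released again by the lipase ATGL, encoded by PNPLA2, which G0S2 and HILPDA proteins inhibit. Several of these genes also answer to other factors: ANGPTL4, PLIN2 and HILPDA to hypoxia-inducible factors, and PDK4 to glucocorticoids and FOXO proteins.

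Rebuilt from the deposited FPKM (fragments scaled by exon length and by library size), assigned reads or fragments numbered 15313566 to 18820092 per library. Between replicates of a group the chi-square per gene was 2.44 to 53.2, above the value near 1 that counting alone gives. On the second principal component (13.7% of the variance) lactoferrin plus PM2.5 replicate 1 stood apart at 38.3, against 7.91 and -7.27 for the rest of its group, and on the third (8.75%) control replicate 3 stood apart at 26.8. Of 18 proximal tubule markers, 14 stayed below 1 FPKM in every library, among them the endocytic receptor genes CUBN and LRP2 and the transcription factor gene HNF4A, and SLC5A12 and SLC22A6 were listed at 0 throughout. PAX8, MIOX and CDH6 were among those that reached at least 1 FPKM. Most defining markers of the labelled cell type were thus low or absent.

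The promoters of the 4 genes with the largest increases and of the 1 gene that fell are shown, because their levels moved in the same libraries. Each window runs 250 bases before to 50 bases after the start given by RefSeq on GRCh38.p14, read 5′ to 3′ on the gene's own strand, and may differ from the outermost start of the gene model used for counting. The windows are chr19:8363905-8364204 (plus strand) for ANGPTL4, chr7:95596467-95596766 (minus) for PDK4, chr9:19127443-19127742 (minus) for PLIN2, chr1:209675162-209675461 (plus) for G0S2 and chr11:818664-818963 (plus) for PNPLA2. Capitals mark matches, on either strand, to the motifs described after the sequences.
ANGPTL4: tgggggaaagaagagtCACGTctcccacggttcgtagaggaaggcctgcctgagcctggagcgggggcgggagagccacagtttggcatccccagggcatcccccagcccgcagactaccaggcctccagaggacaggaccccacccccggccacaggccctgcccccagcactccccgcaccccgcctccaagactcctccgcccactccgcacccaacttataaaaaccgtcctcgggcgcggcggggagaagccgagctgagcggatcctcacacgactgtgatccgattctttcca
PDK4: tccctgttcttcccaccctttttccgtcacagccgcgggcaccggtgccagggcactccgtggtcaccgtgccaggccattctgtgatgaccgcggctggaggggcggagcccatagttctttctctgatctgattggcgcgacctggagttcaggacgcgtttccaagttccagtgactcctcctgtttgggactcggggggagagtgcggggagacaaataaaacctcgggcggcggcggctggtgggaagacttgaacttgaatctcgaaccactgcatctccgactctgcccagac
PLIN2: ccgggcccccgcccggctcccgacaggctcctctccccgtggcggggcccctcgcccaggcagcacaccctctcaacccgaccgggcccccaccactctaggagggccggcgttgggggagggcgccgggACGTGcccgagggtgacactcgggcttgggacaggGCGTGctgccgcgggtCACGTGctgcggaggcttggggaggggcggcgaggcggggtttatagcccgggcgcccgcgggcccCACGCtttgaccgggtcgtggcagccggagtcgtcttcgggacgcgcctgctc
G0S2: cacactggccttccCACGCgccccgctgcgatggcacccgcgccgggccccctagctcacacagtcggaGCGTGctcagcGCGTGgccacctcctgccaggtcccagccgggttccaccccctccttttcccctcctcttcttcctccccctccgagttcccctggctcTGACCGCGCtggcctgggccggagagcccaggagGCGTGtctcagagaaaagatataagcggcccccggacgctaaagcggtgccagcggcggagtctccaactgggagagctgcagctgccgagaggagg
PNPLA2: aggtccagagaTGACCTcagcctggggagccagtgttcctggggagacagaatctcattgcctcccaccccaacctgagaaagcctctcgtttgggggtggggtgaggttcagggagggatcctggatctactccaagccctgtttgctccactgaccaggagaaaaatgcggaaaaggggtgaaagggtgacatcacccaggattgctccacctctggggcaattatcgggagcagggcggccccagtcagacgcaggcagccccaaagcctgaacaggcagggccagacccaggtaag

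The searched letters were the nuclear receptor hexamer AGGTCA, the PPAR direct repeat made of a pair of these hexamers with 1 base of any kind between them, the hypoxia response cores ACGTG and GCGTG, and the antioxidant response core TGACNNNGC, each on both strands with overlapping matches counted. RefSeq windows were found for 9 of the 10 genes, 11 windows in all because ACADVL and PPARA have more than 1, and HILPDA had no entry. None of these windows held the direct repeat, which 0.0228% of 35116 promoters hold, and only PNPLA2 held AGGTCA, which 13.8% of promoters hold. Only exact letters were searched, and a repeat this rare would seldom appear in 11 windows. Its absence therefore says nothing about PPAR binding. ANGPTL4 held 1 match to ACGTG (21.4% of promoters). PLIN2 held 3 matches to ACGTG, of which a pair overlap on opposite strands in the palindrome CACGTG, and 2 to GCGTG (36.5% of promoters). G0S2 held 4 matches to GCGTG and 1 to TGACNNNGC (13.3% of promoters), and PDK4 held none of the 5 motifs. Genes with smaller changes held matches too. The PPARD window had the same counts for all motifs as that of G0S2. A window of ACADVL held 1 match to each hypoxia response core and 1 to the antioxidant response core. CPT1A and a window of PPARA each held 1 match to the hypoxia response core that starts with G. A match describes letters in a window and does not identify a binding site.

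The first comparison asks how PM2.5 alone altered these genes relative to control. ANGPTL4, G0S2, PDK4 and PLIN2 rose most, CPT1A and the receptors PPARA and PPARD rose by less than 1 on the log2 scale, and the lipase gene PNPLA2 fell. In all 7 of the 10 genes were higher and 1 was lower at an adjusted p under 0.05, a threshold that 35.5% of the 14454 tested genes passed (19.9% higher and 15.7% lower). The median log2 fold change of the 10 genes was 0.58, and that of all tested genes was 0.02. PM2.5 and control libraries did not overlap for 9 of the 10 genes, 8 higher and 1 lower, and 53.6% of all tested genes had such a separation (30.9% higher and 22.7% lower). Fold changes were fitted with limma on log2(FPKM + 0.5), which understates changes of low genes.

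**Figure D1:**
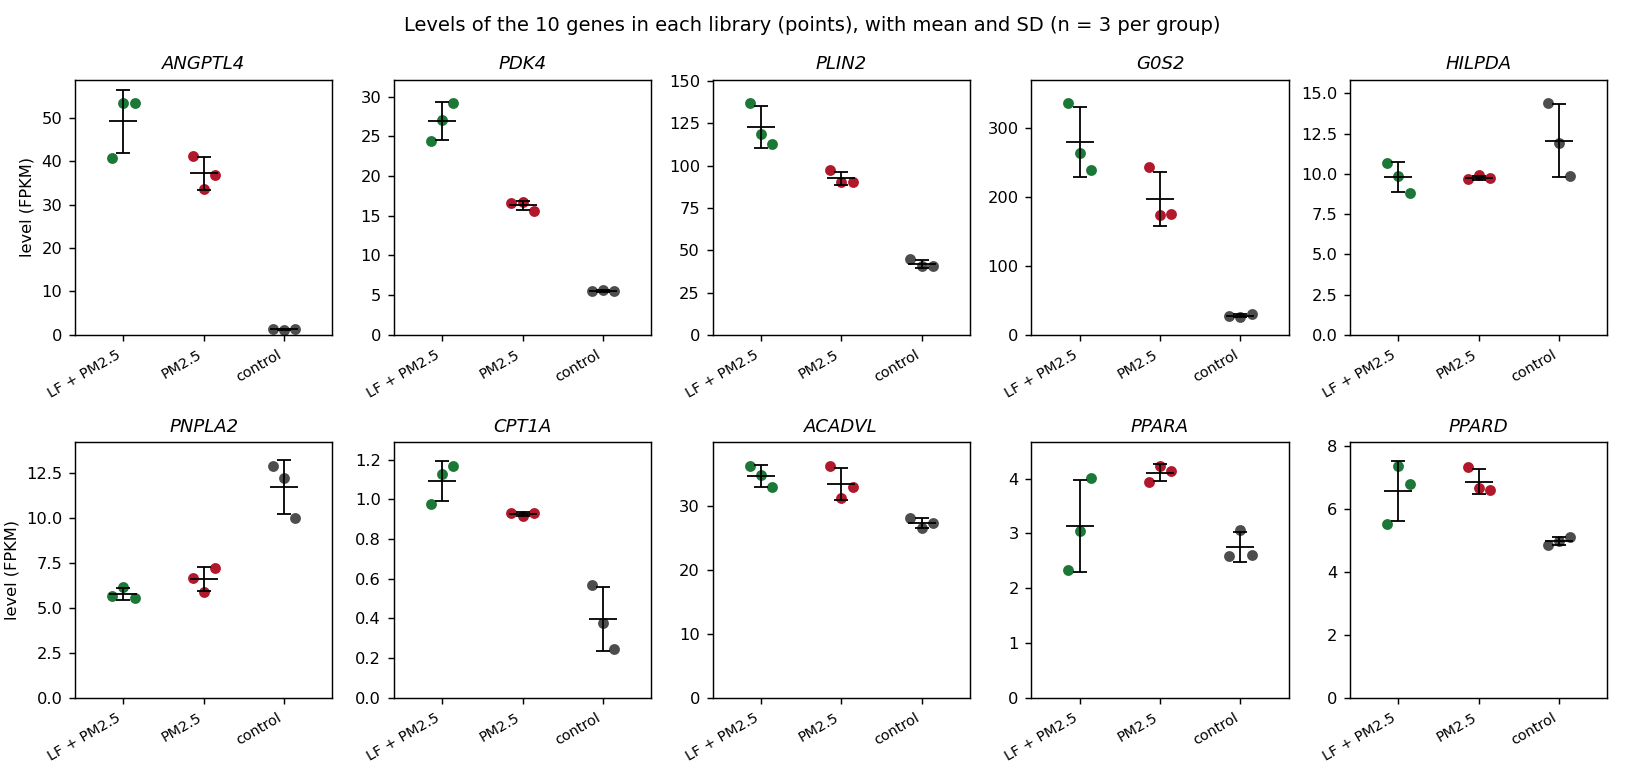
FPKM (vertical axes, starting at 0) of the 10 genes in each library (points) with group means and SD (bars), for lactoferrin plus PM2.5 (LF + PM2.5), PM2.5 and control, n = 3 each. ANGPTL4, PDK4, PLIN2 and G0S2 stand far above control in both exposed groups, PNPLA2 stands below it, and HILPDA overlaps.

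PPARA and PPARD encode the receptors that respond to fatty acids in oxidative and in most other tissues. PPARA (ENSG00000186951, GRCh38 chromosome 22, 46150521 to 46243756, plus strand) had 3.94, 4.24 and 4.15 FPKM in PM2.5 libraries, against 2.59, 3.07 and 2.61 FPKM in control libraries. The lowest PM2.5 library lay above the highest control library, and the log2 fold change was 0.48 ± 0.14 (SE). PPARD (ENSG00000112033, chromosome 6, 35342558 to 35428191, plus strand) had 7.34, 6.69 and 6.61 FPKM in PM2.5 libraries, against 4.85, 4.99 and 5.12 FPKM in control libraries, a log2 fold change of 0.40 ± 0.10. Again the groups did not overlap. Of the 8 member calls these 2 ended when single libraries were left out: that of PPARA ended without control replicate 1 (0.43) or 3 (0.47) or without PM2.5 replicate 1 (0.49), 2 (0.46) or 3 (0.49), and that of PPARD without control replicate 1 (0.37) or PM2.5 replicate 1 (0.34).

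The third receptor gene, PPARG, which drives fat storage in adipocytes, averaged 9.14 ± 0.0429 FPKM in PM2.5 cells and 4.91 ± 0.694 FPKM in control cells (SD, n = 3 each). It rose by 0.82 ± 0.12 on the log2 scale (limma, adjusted p = 0.000812), higher in all 3 PM2.5 libraries than in any control library. Of the summed FPKM of the 3 receptor genes, PPARG made up 45.4% ± 0.57 in PM2.5 cells and 38.7% ± 3.96 in control cells. PPARD made up 34.2% ± 1.55 in PM2.5 cells and 39.4% ± 1.12 in control cells, and PPARA the rest, 20.4% ± 0.988 in PM2.5 cells and 21.8% ± 2.84 in control cells. PPARG was thus the largest of the 3 levels in PM2.5 cells, whereas PPARG and PPARD lay within each other's spread in control cells. The co-activator gene PPARGC1A moved the other way, to 0.526 ± 0.187 FPKM in PM2.5 cells against 2.15 ± 0.174 FPKM in control cells (-1.40 ± 0.15, adjusted p = 0.000178). The related co-activator genes PPARGC1B (0.53 ± 0.14, adjusted p = 0.0164) and PPRC1 (0.48 ± 0.12, adjusted p = 0.0104) rose, and both were named after their values were seen. PPARGC1B averaged 0.657 ± 0.0492 FPKM in PM2.5 cells and 0.293 ± 0.0316 FPKM in control cells. It passed the filter through the exposed libraries, so its fold change depends on the 0.5 added.

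ANGPTL4 encodes a secreted inhibitor of lipoprotein lipase and is a target of PPARs in many cell types. The gene (ENSG00000167772, chromosome 19, 8363289 to 8374373, plus strand) had 41.2, 33.5 and 36.8 FPKM in PM2.5 libraries, against 1.35, 1.20 and 1.41 FPKM in control libraries. The ratio of the means was 28.2 and the log2 fold change 4.35 ± 0.12, with the 3 control libraries close together at a low level. LPL itself, the lipase that ANGPTL4 protein inhibits, was at or below 0.0292 FPKM in all 9 libraries.

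PDK4 encodes a kinase that switches off pyruvate dehydrogenase, so that fatty acids are burned in place of glucose. The gene (ENSG00000004799, chromosome 7, 95583499 to 95596491, minus strand) had 16.6, 16.7 and 15.6 FPKM in PM2.5 libraries, against 5.49, 5.63 and 5.48 FPKM in control libraries. Both groups were tight and apart, with a log2 fold change of 1.45 ± 0.08. The related kinase genes PDK1, PDK2 and PDK3 did not pass the threshold, at means of 1.90 ± 0.197, 2.61 ± 0.0526 and 2.95 ± 0.352 FPKM in PM2.5 cells and 2.15 ± 0.0322, 2.87 ± 0.442 and 2.96 ± 0.306 FPKM in control cells. PDK4 made up 68.6% ± 1.79 of the summed FPKM of the 4 kinase genes in PM2.5 cells and 41.0% ± 1.35 in control cells.

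CPT1A and ACADVL act in mitochondrial fatty acid oxidation: CPT1A protein passes long-chain fatty acids into mitochondria, and ACADVL protein takes the first step of oxidising very long chains. CPT1A (ENSG00000110090, chromosome 11, 68754620 to 68844410, minus strand) had 0.932, 0.916 and 0.933 FPKM in PM2.5 libraries, against 0.566, 0.377 and 0.244 FPKM in control libraries. It passed the filter through the exposed libraries, since control replicates 2 and 3 lay below 0.5 FPKM. The fitted log2 fold change was 0.68 ± 0.14, and it ranged between 0.46 with a pseudocount of 1 and 1.29 with limma-voom on rebuilt reads, so the size of the CPT1A change depends on the scale. ACADVL (ENSG00000072778, chromosome 17, 7217125 to 7225273, plus strand) had 36.2, 31.2 and 32.9 FPKM in PM2.5 libraries, against 28.1, 26.5 and 27.4 FPKM in control libraries. Its groups did not overlap, but its log2 fold change of 0.26 ± 0.09 did not pass the threshold. ACADVL did pass without lactoferrin plus PM2.5 replicate 1 (0.25), with FPKM left unscaled (0.28) and in a fit of only the 6 libraries compared (0.26). In ACADVL, 1.75% of exon bases are shared with DLG4 on the opposite strand, and the strand setting of the counting is not given in the sources used here.

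PLIN2 encodes the main coat protein of lipid droplets in cells other than adipocytes. The gene (ENSG00000147872, chromosome 9, 19108375 to 19149290, minus strand) had 97.1, 90.2 and 90.4 FPKM in PM2.5 libraries, against 44.8, 40.8 and 40.4 FPKM in control libraries. Every PM2.5 library was well above every control library, with a log2 fold change of 1.11 ± 0.11. Of the summed FPKM of the 5 perilipin genes, PLIN2 made up 72.7% ± 0.655 in PM2.5 cells and 49.3% ± 3.07 in control cells. The second most abundant, PLIN3, had 33.2 ± 0.174 FPKM in PM2.5 cells and 43.1 ± 6.85 FPKM in control cells. PLIN4 rose to 1.46 ± 0.170 FPKM in PM2.5 cells, against 0.295 ± 0.0349 FPKM in control cells (1.28 ± 0.16, adjusted p = 0.000395). PLIN4 passed the filter through the exposed libraries, so the size of its fold change depends on the pseudocount. PLIN1 and PLIN5, the perilipins of adipocytes and of oxidative tissue, averaged less than 0.1 FPKM in each group.

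**Figure D2:**
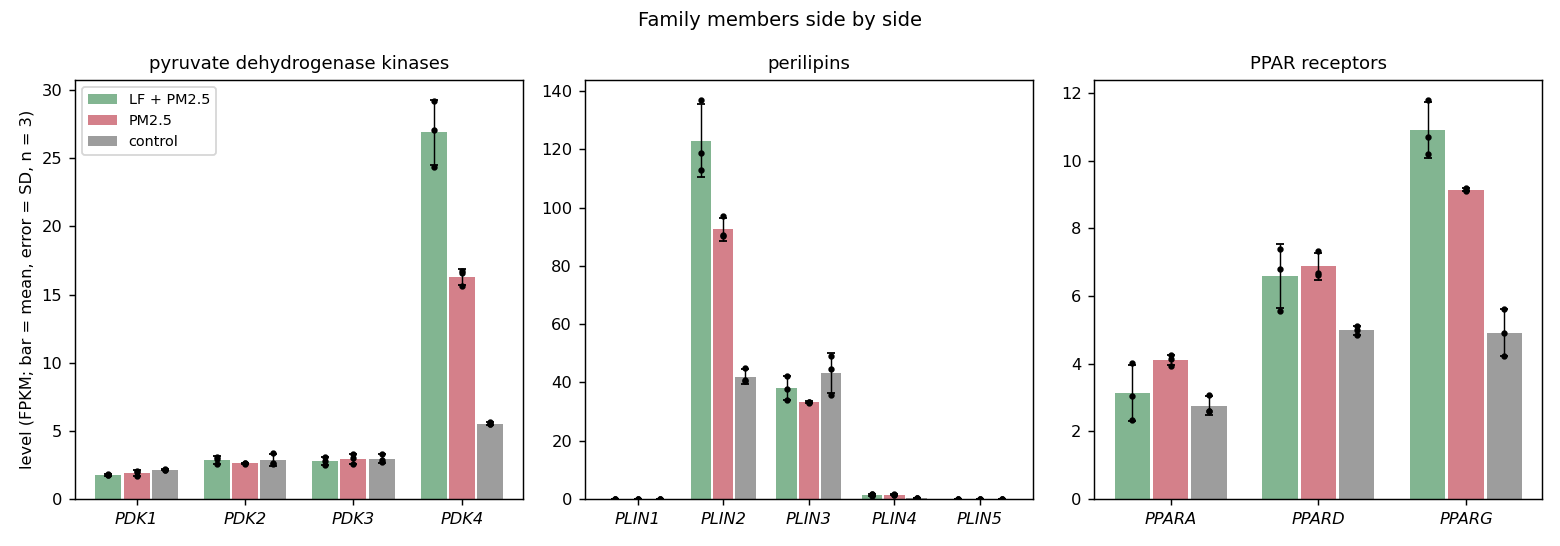
FPKM (vertical axes) of the pyruvate dehydrogenase kinase, perilipin and PPAR receptor genes, with bars for group means, error bars for SD and points for the 3 libraries of lactoferrin plus PM2.5, PM2.5 and control. PDK4 and PLIN2 carry most of the difference within their families, whereas all 3 receptor genes are higher in PM2.5 cells than in control cells.

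PNPLA2 encodes ATGL, the lipase that starts the breakdown of droplet triglyceride. The gene (ENSG00000177666, chromosome 11, 818902 to 825573, plus strand) had 6.66, 5.86 and 7.19 FPKM in PM2.5 libraries, against 12.9, 12.2 and 10 FPKM in control libraries. It fell by 0.81 on the log2 scale (SE 0.10), and no PM2.5 library reached the lowest control library. In PNPLA2, 10.4% of exon bases are shared with AP006621.1 on the opposite strand, and reads of the pair cannot be told apart without strand. ABHD5, the co-activator of ATGL, rose to 5.95 ± 0.367 FPKM in PM2.5 cells, against 3.92 ± 0.261 FPKM in control cells (0.52 ± 0.08, adjusted p = 0.00149), with no overlap between the groups.

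G0S2, the inhibitor of ATGL, had the highest level per length (FPKM) of the 10 genes in exposed cells. The gene (ENSG00000123689, chromosome 1, 209675420 to 209676388, plus strand) had 242.8, 174.1 and 175.9 FPKM in PM2.5 libraries, against 28.1, 26.2 and 30 FPKM in control libraries. PM2.5 replicate 1 was the highest of its group and the control libraries lay close together, with a ratio of means of 7.03 and a log2 fold change of 2.75 ± 0.18. The ratio of G0S2 to PNPLA2 FPKM was 36.5, 29.7 and 24.5 in PM2.5 libraries, against 2.17, 2.15 and 3 in control libraries. The inhibitor's transcript thus exceeded that of the lipase per length in every library, and by far more after PM2.5.

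HILPDA, a second inhibitor of ATGL and a well-known hypoxia-induced gene, did not follow G0S2. The gene (ENSG00000135245, chromosome 7, 128455849 to 128458418, plus strand) had 9.65, 9.91 and 9.71 FPKM in PM2.5 libraries, against 14.4, 11.9 and 9.89 FPKM in control libraries. The groups overlapped only through control replicate 3, and the log2 fold change of -0.30 ± 0.13 did not pass the threshold. Without control replicate 3, which also stood apart on the third component, HILPDA was called lower at -0.41, and without control replicate 1 it was at -0.19 with no call. In HILPDA, 8.45% and 8.99% of exon bases are shared with AC010655.4 and AC010655.2 on the same strand. How far this overlap alters the HILPDA level was not tested.

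**Figure D3:**
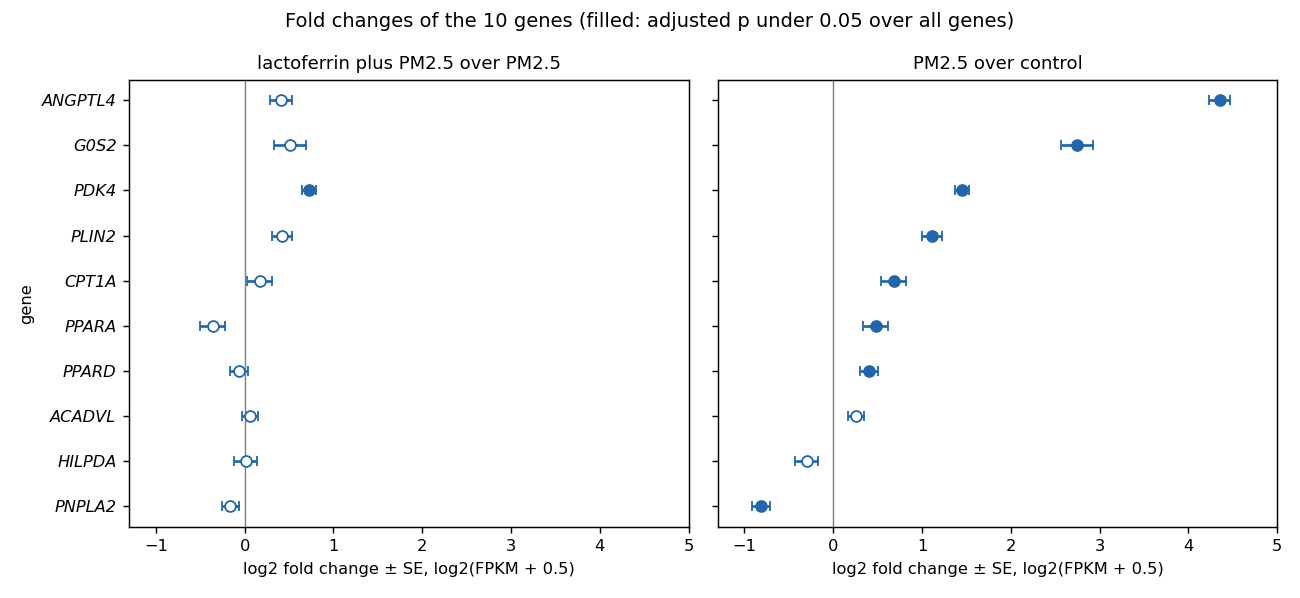
Log2 fold changes (points) with SE (bars) of the 10 genes, on the log2(FPKM + 0.5) scale, for lactoferrin plus PM2.5 over PM2.5 (left) and PM2.5 over control (right), with filled points past the threshold. ANGPTL4 reaches 4.35 and G0S2 2.75 for PM2.5 over control, and PDK4 is the filled point on the left at 0.72.

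The second comparison asks whether lactoferrin pretreatment altered these genes relative to PM2.5 alone. PDK4 rose further, by 0.72 ± 0.08 on the log2 scale, and it was the member past the threshold, which 0.0484% of tested genes passed (0.0208% higher and 0.0277% lower). These were 7 genes, 3 higher and 4 lower, and 1766 genes had an unadjusted p under 0.05. None of the 10 genes returned toward control beyond the threshold. The median log2 fold change was 0.11 over the members and 0.01 over all tested genes. Lactoferrin plus PM2.5 and PM2.5 libraries did not overlap for PDK4, PLIN2 and CPT1A, all higher, a separation that 21.1% of tested genes had (11.3% higher and 9.79% lower). Since pretreated cells had 18 h and not 24 h in PM2.5, lactoferrin and time in PM2.5 cannot be told apart.

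PDK4 had 24.4, 27.1 and 29.2 FPKM in lactoferrin plus PM2.5 libraries, against 16.6, 16.7 and 15.6 FPKM in PM2.5 libraries. The lowest pretreated library was well above the highest PM2.5 library, and the ratio of means was 1.65. PDK4 made up 78.4% ± 1.43 of the summed kinase FPKM in pretreated cells and 68.6% ± 1.79 in PM2.5 cells. The fold change held its size but not its call when libraries were left out: the call ended without PM2.5 replicate 1 (0.75), 2 (0.73) or 3 (0.66), without lactoferrin plus PM2.5 replicate 2 (0.71) or 3 (0.67), and in a fit of only the 6 libraries compared (0.72).

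PLIN2 had 137.0, 118.8 and 113.0 FPKM in lactoferrin plus PM2.5 libraries, against 97.1, 90.2 and 90.4 FPKM in PM2.5 libraries, a log2 fold change of 0.42 ± 0.11. ANGPTL4 had 40.8, 53.4 and 53.4 FPKM in lactoferrin plus PM2.5 libraries, against 41.2, 33.5 and 36.8 FPKM in PM2.5 libraries, a log2 fold change of 0.41 ± 0.12. G0S2 had 336.3, 264.0 and 238.6 FPKM in lactoferrin plus PM2.5 libraries, against 242.8, 174.1 and 175.9 FPKM in PM2.5 libraries, a log2 fold change of 0.51 ± 0.18. Means of all 3 genes were higher after pretreatment, but none passed the threshold, and the groups overlapped for ANGPTL4 and G0S2. Lactoferrin plus PM2.5 replicate 1, which stood apart on the second component, held the highest G0S2 and PLIN2 and the lowest ANGPTL4 and PDK4 of its group. Without it the log2 fold changes were 0.30 for PLIN2, 0.34 for G0S2, 0.50 for ANGPTL4 and 0.75 for PDK4.

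The receptor genes PPARA and PPARD gave no call between the exposed groups. PPARA had 2.34, 3.04 and 4.01 FPKM in lactoferrin plus PM2.5 libraries, against 3.94, 4.24 and 4.15 FPKM in PM2.5 libraries (-0.36 ± 0.14). PPARD had 5.54, 7.39 and 6.80 FPKM in lactoferrin plus PM2.5 libraries, against 7.34, 6.69 and 6.61 FPKM in PM2.5 libraries (-0.06 ± 0.10). Replicate 1 was the lowest pretreated library for both receptors. The PPARA value depended on single libraries, at -0.22 without lactoferrin plus PM2.5 replicate 1 and -0.51 without replicate 3. PPARG averaged 10.9 ± 0.809 FPKM in pretreated cells and 9.14 ± 0.0429 FPKM in PM2.5 cells (0.25 ± 0.12), and its groups did not overlap, although the adjusted p of 0.419 missed the threshold.

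CPT1A had 0.978, 1.13 and 1.17 FPKM in lactoferrin plus PM2.5 libraries, against 0.932, 0.916 and 0.933 FPKM in PM2.5 libraries, a log2 fold change of 0.17 ± 0.14. ACADVL had 36.3, 34.8 and 32.9 FPKM in lactoferrin plus PM2.5 libraries, against 36.2, 31.2 and 32.9 FPKM in PM2.5 libraries, a log2 fold change of 0.06 ± 0.09. Neither passed the threshold, and for CPT1A the separation was narrow. PNPLA2 had 5.64, 6.16 and 5.52 FPKM in lactoferrin plus PM2.5 libraries, against 6.66, 5.86 and 7.19 FPKM in PM2.5 libraries (-0.16 ± 0.10), and HILPDA had 10.7, 9.85 and 8.81 FPKM in lactoferrin plus PM2.5 libraries, against 9.65, 9.91 and 9.71 FPKM in PM2.5 libraries (0.01 ± 0.13). The groups overlapped for both genes. The ratio of G0S2 to PNPLA2 was 59.6, 42.9 and 43.2 in lactoferrin plus PM2.5 libraries, above its 36.5, 29.7 and 24.5 in PM2.5 libraries.

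Against control, lactoferrin plus PM2.5 raised 7 of the 10 genes and lowered PNPLA2, where 38.7% of tested genes passed the threshold (21.3% higher and 17.4% lower). The 2 comparisons with control share its 3 libraries, so their values are set side by side only. The log2 fold change of ANGPTL4 over control was 4.75 ± 0.12 with lactoferrin plus PM2.5 and 4.35 ± 0.12 with PM2.5 alone. That of G0S2 was 3.26 ± 0.18 with lactoferrin plus PM2.5 and 2.75 ± 0.18 with PM2.5 alone. For PDK4 and PLIN2 the values with lactoferrin plus PM2.5 were 2.17 ± 0.08 and 1.52 ± 0.11, and those with PM2.5 alone 1.45 ± 0.08 and 1.11 ± 0.11. All 4 estimates were thus larger with pretreatment, although only PDK4 passed in the direct comparison. ACADVL passed the threshold with pretreatment (0.32 ± 0.09), and PPARA did not (0.12 ± 0.14), the reverse of PM2.5 alone, although ACADVL and PPARA did not pass in the direct comparison of the exposed groups. Both CPT1A (0.84 ± 0.14) and PPARD (0.35 ± 0.10) were higher than control, PNPLA2 was lower (-0.97 ± 0.10), and HILPDA did not pass (-0.29 ± 0.13). Lactoferrin plus PM2.5 and control libraries did not overlap for 8 of the 10 genes, 7 higher and 1 lower, as for 47.5% of tested genes (26.8% higher and 20.7% lower).

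The ACADVL and PPARD calls against control were not firm. That of ACADVL ended without control replicate 1 (0.32) or 2 (0.29) or without lactoferrin plus PM2.5 replicate 1 (0.25) or 2 (0.32). That of PPARD ended without control replicate 1 (0.31) or 2 (0.34), without lactoferrin plus PM2.5 replicate 2 (0.26) or 3 (0.34), with upper-quartile scaling (0.29), or in a fit of only the 6 libraries compared (0.35). HILPDA was called lower without control replicate 3 (-0.40), without lactoferrin plus PM2.5 replicate 1 (-0.39), with upper-quartile scaling (-0.36) or with the replicate block (-0.29), and stood at -0.18 without control replicate 1 and -0.21 without lactoferrin plus PM2.5 replicate 3, with no call.

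Other genes of fat storage and release were read from 13 lists that leave the 10 members out and were written with earlier results known. Of 222 list genes 173 were tested. With PM2.5 alone 58 rose and 33 fell, beside 19.9% higher and 15.7% lower over all tested genes, and between the 2 exposed groups limma called 0 (27 at an unadjusted p under 0.05, beside 1766 of all 14454 tested genes, and 0 called by limma-voom on rebuilt reads). Lists of fat storage and release held mostly increases with PM2.5: 4 of 7 droplet coat and assembly genes rose and 1 fell (median log2 fold change 0.53), 7 of 13 triglyceride synthesis genes rose and 1 fell (0.32), and 7 of 10 lipolysis and lipophagy genes rose and 0 fell (0.47), beside a median of 0.02 over all tested genes. GPAT3, which takes the first step of glycerolipid synthesis, averaged 60.7 ± 0.590 FPKM in PM2.5 cells and 15.0 ± 1.84 FPKM in control cells (1.96 ± 0.12, adjusted p = 6.08e-06). Also higher were LDAF1, a seipin partner in droplet formation (1.34 ± 0.16, adjusted p = 0.000309), AUP1 (0.77 ± 0.10, adjusted p = 0.000353) and the cholesterol esterifying enzyme gene SOAT1 (0.82 ± 0.11, adjusted p = 0.000666). The monoacylglycerol lipase genes MGLL and ABHD6 rose by 1.16 ± 0.09 (adjusted p = 1.7e-05) and 1.01 ± 0.09 (adjusted p = 6.69e-05). All 6 genes separated PM2.5 from control libraries without overlap.

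**Figure D4:**
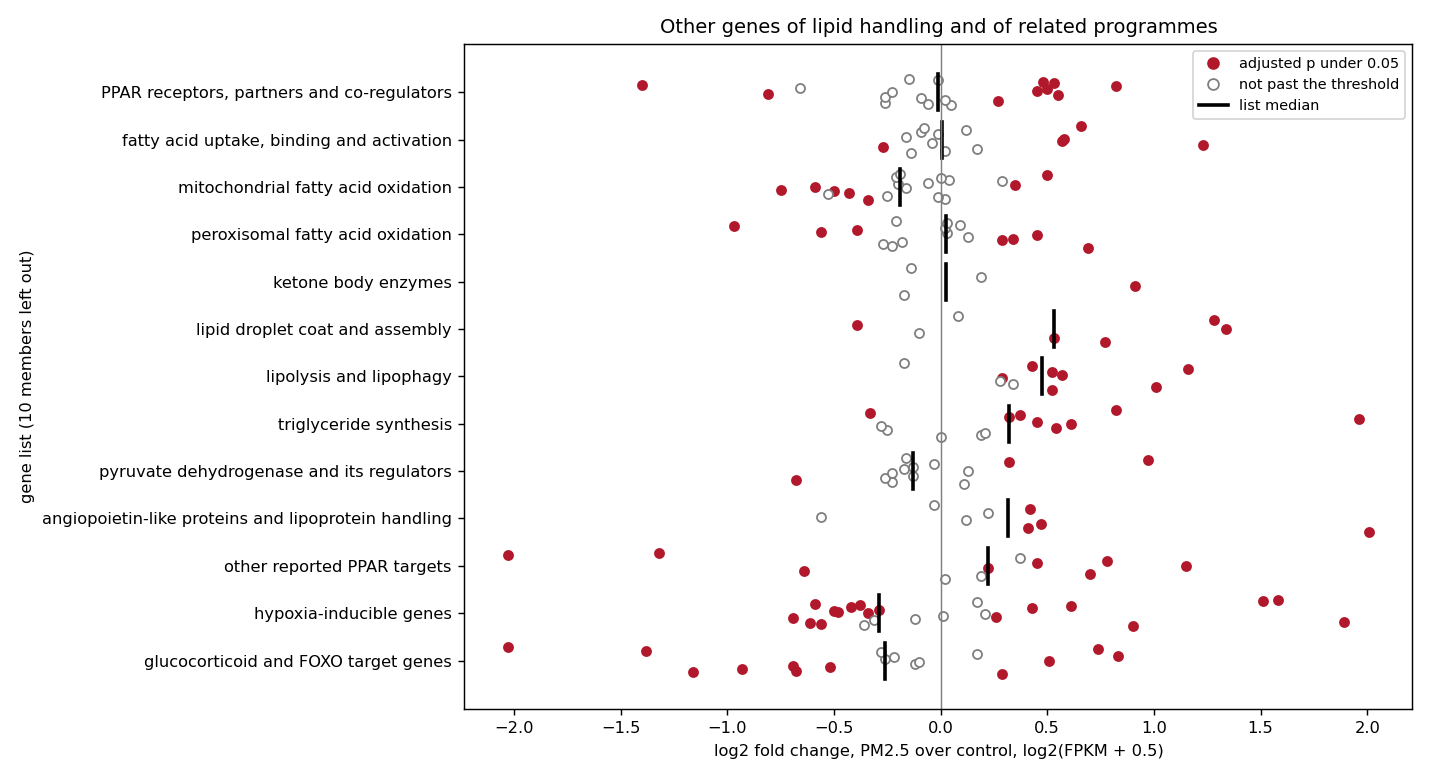
Log2 fold change of PM2.5 over control (horizontal axis, log2(FPKM + 0.5) scale) for each tested gene of the 13 lists, with filled points past the adjusted p threshold of 0.05 and a bar at each list's median. Medians run between -0.29 for hypoxia-inducible genes and 0.53 for droplet coat and assembly genes.

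Lists of fatty acid oxidation did not hold mostly increases with PM2.5. Of 19 mitochondrial oxidation genes 2 rose and 5 fell (median log2 fold change -0.19), and of 16 peroxisomal genes 4 rose and 3 fell (0.03). These counts are small and stand beside 19.9% higher and 15.7% lower over all tested genes, so they set neither list apart. The same shares apply to the other lists of this paragraph. DECR1, which handles unsaturated fatty acids, averaged 4.70 ± 0.372 FPKM in PM2.5 cells and 8.09 ± 0.649 FPKM in control cells (-0.75 ± 0.12, adjusted p = 0.00136). CPT2, the partner of CPT1A on the inner membrane, fell to 0.663 ± 0.0259 FPKM in PM2.5 cells, against 1.12 ± 0.0718 FPKM in control cells (-0.50 ± 0.12, adjusted p = 0.00922). In the peroxisome PECR fell (-0.97 ± 0.16, adjusted p = 0.00195). Of 14 genes of fatty acid uptake, binding and activation 4 rose and 1 fell (median 0.01), with ACSL1, which couples fatty acids to coenzyme A, at 9.50 ± 0.145 FPKM in PM2.5 cells and 3.69 ± 0.276 FPKM in control cells (1.23 ± 0.08, adjusted p = 7.22e-06) and ACSL5 at 0.58 ± 0.09 (adjusted p = 0.00116). The fatty acid transporter gene CD36, a PPAR target, was hardly present, at no more than 0.0409 FPKM in any library. Of 4 tested ketone body enzyme genes, BDH1 rose (0.91 ± 0.09, adjusted p = 0.000129).

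Among 19 PPAR partners and co-regulators 7 rose and 2 fell (median log2 fold change -0.01), beside 19.9% higher and 15.7% lower over all tested genes. The 2 that fell were PPARGC1A, given above, and NCOR1 (-0.81 ± 0.15, adjusted p = 0.00367). The same shares over all tested genes apply to the other lists of this paragraph. Around pyruvate dehydrogenase 2 of 13 genes rose and 1 fell (-0.13): the phosphatase gene PDP2, whose protein reverses what PDK4 does, rose by 0.97 ± 0.10 (adjusted p = 0.000107), and the pyruvate carrier gene MPC1 fell by 0.68 (SE 0.18, adjusted p = 0.0164). Of 8 angiopoietin-like and lipoprotein genes 4 rose and 0 fell (0.32), led by ANGPTL2 at 20.6 ± 0.971 FPKM in PM2.5 cells and 4.67 ± 0.144 FPKM in control cells (2.01 ± 0.11, adjusted p = 3.38e-06), with the lipoprotein receptor gene SCARB1 at 0.42 ± 0.10 (adjusted p = 0.0122). Of 11 other reported PPAR targets 5 rose and 3 fell (0.22). The 2 with the smallest adjusted p fell: TXNIP to 14.2 ± 0.453 FPKM in PM2.5 cells, against 58.7 ± 5.44 FPKM in control cells (-2.03 ± 0.08, adjusted p = 8.58e-07), and UCP2 to 46.5 ± 1.56 FPKM in PM2.5 cells, against 114.7 ± 10.1 FPKM in control cells (-1.32 ± 0.09, adjusted p = 1.35e-05).

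The lists of hypoxia-inducible genes and of glucocorticoid and FOXO targets held calls in both directions, beside 19.9% higher and 15.7% lower over all tested genes. Whether these factors acted on the 10 genes was not tested. Of 23 hypoxia-inducible genes 7 rose and 10 fell with PM2.5 (median log2 fold change -0.29), with the carbonic anhydrase gene CA12 (1.89 ± 0.11, adjusted p = 5.87e-06) and VEGFA (1.58 ± 0.12, adjusted p = 2.16e-05) among the higher ones. Of 17 glucocorticoid and FOXO targets 4 rose and 7 fell (-0.26), among them SGK1, a kinase gene induced by glucocorticoids, which fell to 5.14 ± 0.75 FPKM in PM2.5 cells, against 13.9 ± 0.709 FPKM in control cells (-1.38 ± 0.10, adjusted p = 1.26e-05). TXNIP, given above among the PPAR targets, is also in this list and is counted in both.

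Against control, lactoferrin plus PM2.5 raised 56 of the 173 tested list genes and lowered 40, beside 21.3% higher and 17.4% lower over all tested genes. By list, droplet coat and assembly genes stood at 4 higher and 0 lower of 7 (median log2 fold change 0.59), lipolysis and lipophagy genes at 7 and 0 of 10 (0.37), triglyceride synthesis genes at 6 and 2 of 13 (0.27), uptake genes at 6 and 1 of 14 (0.29) and mitochondrial oxidation genes at 3 and 3 of 19 (0.03). The hypoxia list had 7 higher and 10 lower (-0.32), and the glucocorticoid and FOXO list 4 higher and 12 lower (-0.45). GPAT3 averaged 76.3 ± 10.4 FPKM in pretreated cells and 15.0 ± 1.84 FPKM in control cells (2.29 ± 0.12, adjusted p = 2.01e-06), and ANGPTL2 was at 2.36 ± 0.11 (adjusted p = 9.45e-07). Genes named from the lists in this comparison but not in that of PM2.5 alone included the triglyceride synthesis gene DGAT2 (0.77 ± 0.10, adjusted p = 0.000338), the apolipoprotein gene APOE (0.80 ± 0.12, adjusted p = 0.000711), the malic enzyme gene ME1 (1.28 ± 0.08, adjusted p = 7.05e-06), ECI2 (0.50 ± 0.11, adjusted p = 0.00729) and the pyruvate dehydrogenase component gene PDHX (0.40 ± 0.11, adjusted p = 0.0171). ACADSB was lower (-0.52 ± 0.12, adjusted p = 0.00964). Only the 2 called genes with the smallest adjusted p were named per list, so the genes named here may also have changed with PM2.5 alone. ECI2 (0.35 ± 0.11) and ACADSB (-0.43 ± 0.12) were called there too, and the values of DGAT2, APOE, ME1 and PDHX with PM2.5 alone are not given here. No list gene was called between the exposed groups, so none is particular to pretreatment.

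The profiles most like those of the 4 leading genes were sought among 11208 genes with a mean of at least 1 FPKM, by the root mean square difference of log2 values, centred on control, over the 9 libraries. For ANGPTL4 they were MMP1 (0.16), HMOX1 (0.26) and ATP6V0D2 (0.38), and for PDK4 they were GEM (0.16), TMEM158 (0.18) and TFPI2 (0.18). For PLIN2 they were STEAP1B (0.09), ATP6V1B2 (0.09) and NRIP3 (0.10), and for G0S2 they were MMP3 (0.28), SLC16A6 (0.30) and TM4SF19 (0.31). MMP3 was listed at 0 in all control libraries, where SLC16A6 averaged 0.152, TM4SF19 0.613 and ATP6V0D2 0.289 FPKM. These genes passed the mean filter through the exposed libraries. Their distances, to ANGPTL4 for ATP6V0D2 and to G0S2 for the others, depend on the 0.5 added. MMP1, the interstitial collagenase gene, averaged 244.5 ± 11.7 FPKM in lactoferrin plus PM2.5 cells, 157.6 ± 11.5 FPKM in PM2.5 cells and 7.19 ± 0.624 FPKM in control cells. HMOX1, the heme oxygenase gene, averaged 1398.9 ± 117.1 FPKM in lactoferrin plus PM2.5 cells, 832.2 ± 75.7 FPKM in PM2.5 cells and 49.7 ± 6.33 FPKM in control cells. The distances for PLIN2 were smaller than those for G0S2, and the cause of this was not tested.

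Markers of other cell types were read beside these values. Of 10 adipocyte and hepatocyte markers, cells in which PPAR targets are abundant, 8 stayed below 1 FPKM in every library, LEP and CIDEA were listed at 0, and the list summed to 34.8 to 39.3 FPKM in lactoferrin plus PM2.5, 43.1 to 48.9 in PM2.5 and 36.6 to 44.1 in control libraries, carried by SERPINA1. Of 10 fibroblast and endothelial markers 7 stayed below 1 FPKM, and the list summed to 50.8 to 55.1 FPKM in lactoferrin plus PM2.5, 66.2 to 68.1 in PM2.5 and 48.1 to 54.4 in control libraries, carried by LUM. That sum was higher in PM2.5 libraries than in the other groups, and its part in the results was not tested. COL1A1, DCN and LUM reached at least 1 FPKM. Of the 3 tested markers of this list 2 were called higher and 1 lower with PM2.5, beside 19.9% higher and 15.7% lower over all tested genes. The fibroblast genes COL1A2 and COL3A1 were at or below 0.0156 FPKM. Immune markers summed to at most 2.42 FPKM and distal nephron markers to at most 0.508 FPKM in any library.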

How the data were processed

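RNA-seq of 9 HK-2 libraries, 3 per group, was analysed from the processed tables. Per the submitters' processing notes, the tools listed include HISAT2 2.1.0, featureCounts 1.6.0, DESeq2 1.22.1 and Trimmomatic 0.38, with CASAVA, MultiQC and FastQC, and the build is GRCh38. Neither order nor settings, annotation release nor strand are given there. The deposited values were FPKM, a unit inferred from the values: multiplied by GENCODE v29 exon lengths (58611 of 58884 identifiers), 85.94% to 87.22% of low values (up to 200 reads) were whole multiples of 1 step within 0.05. FPKM give no count for a count model, so limma 3.58.1 in R 4.3.3 was fitted to log2(FPKM / factor + 0.5), with trimmed mean of M values factors (0.9602 to 1.037), 3 group means, and trend and robust options. Benjamini-Hochberg adjustment covered the 14454 genes at 0.5 FPKM or more in at least 3 libraries, with calls at adjusted p under 0.05.

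Groups and replicate numbers came from the labels. The fit was tested on simulated data. The members and lists were chosen with earlier results of these data known. Genes named from a list are its 2 called genes with the smallest adjusted p in each comparison, plus direct partners or family members of members. PPARGC1B, PPRC1, NCOR1 and CD36 were named outside this rule. A few genes so named are not reported here. Symbols were matched for 41967 identifiers and gene coordinates are GENCODE v29 on GRCh38. Alternatives covered scaling, filter, pseudocount, limma-voom, a replicate block, the 6 libraries compared, and leaving out each library. Figures used matplotlib 3.10.9 in Python 3.11.15.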

Additional observations from a re-analysis of the deposited data

How the results depend on the processing

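Directions of ANGPTL4, PDK4, PLIN2, G0S2, CPT1A and PNPLA2 were kept in each comparison under every alternative run, and their calls against control were kept where they were tested; CPT1A was not tested with a filter at 1 FPKM. Over the 10 members, 519 values kept direction and call, 13 gained a call, 26 lost it and 9 changed sign, none of these 9 past the threshold. The sign changes were small: HILPDA between lactoferrin plus PM2.5 and PM2.5 was -0.02 with upper-quartile scaling, -0.01 without PM2.5 replicate 3, and -0.08 without lactoferrin plus PM2.5 replicate 1. PPARD was 0.00 without PM2.5 replicate 1 and 0.02 without lactoferrin plus PM2.5 replicate 1, ACADVL was 0.00 without lactoferrin plus PM2.5 replicate 1 (ranges over all left-out libraries -0.08 to 0.10 for HILPDA, -0.14 to 0.02 for PPARD and 0.00 to 0.14 for ACADVL), and PPARA with lactoferrin plus PM2.5 against control was -0.03 without lactoferrin plus PM2.5 replicate 3 (range -0.03 to 0.26). With control replicate 3 and lactoferrin plus PM2.5 replicate 1 both left out, an alternative chosen after seeing the data, HILPDA was -0.07 and PPARD 0.03. Between the exposed groups the genes called numbered 7, 13 with the replicate block, 16 with limma-voom, 2 with only the 6 libraries compared, 11 without both libraries, and 0 to 9 without 1 library (1001 at an unadjusted p under 0.05 where PM2.5 replicate 2 was left out); members called numbered 1, 0 with only the 6 libraries compared and 0 to 1 without 1 library. With no filter on low values the calls of PPARA for PM2.5 against control (0.48) and of ACADVL (0.32) and PPARD (0.35) for lactoferrin plus PM2.5 against control ended. Genes called against control ranged between 3730 and 5889 for PM2.5 and between 4266 and 5451 for lactoferrin plus PM2.5 without 1 library. Same-numbered libraries correlated at -0.0681 to 0.179 over genes, and differently numbered ones of different groups at -0.179 to 0.136. Whether libraries of the same number share an effect was not tested. For PM2.5 against control the replicate block gave 5673 calls, against 5133 in the main fit. It added HILPDA (-0.30) and ACADVL (0.26) to the members called there. Among other named genes 905 values kept their call and 7 lost it. The causes of these differences were not tested. Depth limits CPT1A most, with 27.97 to 56.95 rebuilt reads in control libraries.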
